A study of Mus musculus with 6 samples.

Results

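The genes described here are 41 genes of DNA replication and the passage from G1 into S phase, listed by name, with the brightest probe set standing for each gene. They were followed in RNA of the mouse embryonic fibroblast line NIH3T3, on 6 Affymetrix expression arrays. Of the 41 genes, 40 had a probe set (a group of probes against 1 transcript) that the platform annotation pairs with that gene alone, among 18193 genes with such a set, and 37 lay above the level at which genes were tested, among 10916 tested genes. Chaf1a had no probe set named for it in the annotation used and is not analysed here. Cdc6, Tyms and E2f2 lay below the level for testing, an intensity of 39.2.

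The arrays came from cells with wild-type LPAR1 and cells with mutant LPAR1, each with 1 array at 0, 1 at 60 and 1 at 120 minutes. LPAR1 is the cell-surface receptor, coupled to G proteins, through which the growth-promoting serum lipid lysophosphatidic acid acts. All 6 arrays are of the same cell line, and the labels name no other allele or agent, leave unsaid how cells were treated at 0 minutes and which mutation the receptor carried, and do not give the number of cultures or clones. Each genotype was arrayed once per time, so p-values measure the spread left after genotype and time are fitted, which may be technical.

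Before S phase, the origin recognition complex, Cdc6 and Cdt1 load the ring-shaped MCM helicase onto DNA, and Cdc45 and the GINS complex then turn it into an active helicase. Primase and the DNA polymerases copy the strands, held by the PCNA clamp that replication factor C loads. Genes of this machinery are classic targets of the E2F transcription factors: they are low in resting fibroblasts and rise late in G1, many hours after growth factors return, well after the immediate early genes.

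Promoter sequences are shown for a pair of genes that fell over the time course, Mcm7 and Mcm5, and a pair that rose, Cdca7 and E2f3, because all hold a sequence that E2F factors are known to recognise. Each is the 250 bases before a transcript start, 5′ to 3′ on the gene's strand, from RefSeq on GRCm38.p6. Capitals mark matches on either strand to TTTCCCGC, TTTGGCGC, TTTCGCGC or TTTGCCGC. Mcm7 and E2f3 each have another transcript start, whose promoter window held no match and is not shown. The stretches lie at chr5:138171884-138172133 (minus strand) for Mcm7, chr8:75109259-75109508 (plus) for Mcm5, chr2:72475969-72476218 (plus) for Cdca7 and chr13:29986064-29986313 (minus) for E2f3.
Mcm7: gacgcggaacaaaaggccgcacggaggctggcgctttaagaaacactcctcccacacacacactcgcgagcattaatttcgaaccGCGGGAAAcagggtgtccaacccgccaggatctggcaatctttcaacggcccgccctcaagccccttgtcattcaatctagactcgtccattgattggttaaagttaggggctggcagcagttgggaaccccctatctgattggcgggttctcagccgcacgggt
Mcm5: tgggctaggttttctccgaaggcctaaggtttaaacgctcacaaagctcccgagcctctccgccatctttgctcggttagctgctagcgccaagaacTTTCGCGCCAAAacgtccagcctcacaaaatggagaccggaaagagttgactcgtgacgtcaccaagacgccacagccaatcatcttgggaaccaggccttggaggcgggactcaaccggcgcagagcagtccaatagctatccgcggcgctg
Cdca7: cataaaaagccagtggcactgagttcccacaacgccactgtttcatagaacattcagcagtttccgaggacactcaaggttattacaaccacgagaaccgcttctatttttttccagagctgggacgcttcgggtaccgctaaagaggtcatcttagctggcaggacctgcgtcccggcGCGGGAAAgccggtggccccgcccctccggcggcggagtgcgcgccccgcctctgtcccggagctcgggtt
E2f3: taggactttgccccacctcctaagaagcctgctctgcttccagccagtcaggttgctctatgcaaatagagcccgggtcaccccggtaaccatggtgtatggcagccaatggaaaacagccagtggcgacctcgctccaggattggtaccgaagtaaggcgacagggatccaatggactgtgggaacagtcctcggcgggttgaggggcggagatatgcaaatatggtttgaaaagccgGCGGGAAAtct
In Mcm5 the capitals hold 2 overlapping matches, 1 on each strand.

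Windows from 250 bases before to 50 bases after the start were found for 35 of the 41 genes, 42 windows in all. Of these windows 15 held an E2F match, or 35.7%, beside 2.26% of all 32851 promoter windows and 3.94% of the 11358 windows of tested genes. A CCAAT box (CCAAT, either strand) stood in 57.1% of the replication gene windows, 37.4% of all windows and 37.9% of windows of tested genes. For the E-box CACGTG these shares were 16.7%, 7.15% and 9.90%. Overlaps between the motifs were not removed and base composition was not matched. Counted by gene, with a match in any of its windows, 42.9% of the 35 genes held an E2F match. The share was 4.78% of the 8896 tested genes with a window. Split by the change at 120 minutes described next, E2F matches were found in 9 of 19 genes that fell, 2 of 3 that rose and 2 of 9 that did not pass. Promoters of both directions thus held the motif, and a match is a description of the sequence and not of a bound site.

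Median intensities per array ran from 34.1 to 37.3. The Actb control sets, whose 5′ to 3′ ratio reflects RNA quality, gave 0.579 (wild-type) and 0.505 (mutant) at 0 minutes. At 60 and 120 minutes the Actb ratios lay between 0.650 and 0.699, so this ratio moved with time. The Gapdh control sets gave ratios of 1.02, 1.03 and 0.991 in wild-type and 0.954, 1.03 and 1.03 in mutant cells at 0, 60 and 120 minutes. Both ratios were lowest in the mutant array of 0 minutes. The part of RNA quality in the time and genotype results was not tested. All 9 fibroblast markers with a probe set were above the level for testing in all 6 arrays, with summed intensities of 57632 to 58936 in wild-type and 56939 to 57704 in mutant cells. Among markers of other cell types, Ptprc, Cd3e and Itgam of leukocytes, Pecam1, Kdr, Tek and Vwf of endothelium, and Krt8 and Krt18 of epithelium were below that level in every array. The other 3 of 5 epithelial markers and 1 of 4 leukocyte markers were above it in all 6 arrays. Cdh5, the 1 tested endothelial marker, had an intensity of 22.4, 23.0 and 27.4 in wild-type and 64.6, 61.4 and 62.1 in mutant cells, and was called higher in mutant cells (log2 0.97 ± 0.10; adjusted p = 0.000246). Its wild-type arrays all lay below the level for testing, so its mean reached that level only through the mutant arrays. Of 3 tested epithelial markers Cdh1 was called lower in mutant cells (-0.49 ± 0.079; adjusted p = 0.00286). Summed over 5 endothelial markers the intensity was 55.5 to 70.5 in wild-type and 98.4 to 115 in mutant cells, against 376 to 489 for 5 epithelial and 181 to 209 for 4 leukocyte markers in either genotype; the part of other cells in the results was not tested. All 10 immediate early genes listed rose from 0 to 60 minutes, by 1.02 to 5.61 on the log2 scale, where 7.34% of all tested genes rose.

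Comparison of 120 with 0 minutes asks how this machinery changed over the whole time course in both genotypes. Most of it went down: of 37 tested genes 22 fell and 4 rose, where 30.8% of all tested genes fell, 16.2% rose and 47.0% passed in either direction. The falls were small, from 0.19 on the log2 scale for Rpa1 to 0.78, or 1.72-fold, for Mcm7, and the rises were those of Cdca7, E2f3, Prim2 and Pcna, the largest being 2.15-fold for Cdca7. The median log2 difference was -0.30 over the 37 genes and -0.091 over all tested genes. Differences are of log2(intensity + 16), as 120 minus 0 minutes averaged over both genotypes, and the threshold was an adjusted p of 0.05 in limma, by Benjamini-Hochberg over all 10916 genes. In bulk RNA, fewer cells in S phase and less RNA per cell cannot be told apart.

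**Figure D1:**
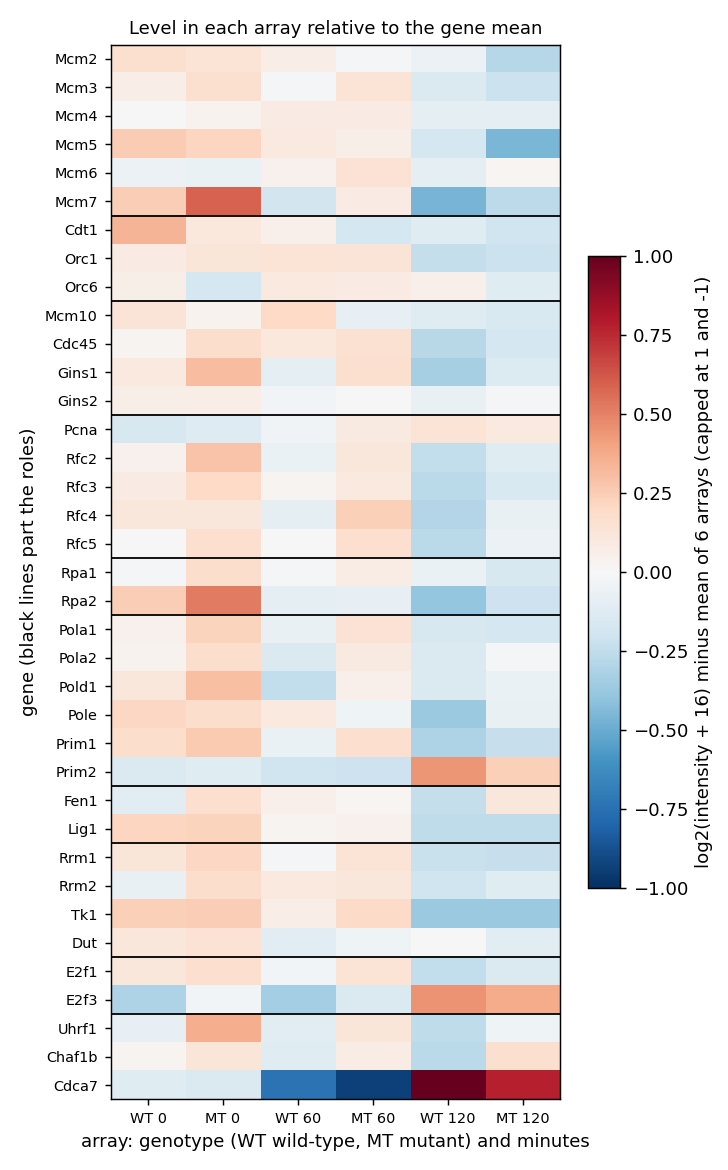
Level of the 37 tested replication and G1/S genes in each of the 6 arrays, as log2(intensity + 16) minus the gene's mean over the arrays (colour, red higher and blue lower, capped at 1 and -1), with genes in rows by role and arrays in columns by time. Most rows turn from red at 0 minutes to blue at 120 minutes, and Cdca7, E2f3, Prim2 and Pcna turn the other way.

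Most genes changed in the same direction in both genotypes, though a difference in response could not be tested. At 120 minutes 30 of the 37 genes were lower than at 0 minutes in wild-type and in mutant cells, against 53.3% of all tested genes, and 4 were higher in both, against 27.8%. A stepwise fall, lower at 60 than at 0 and lower again at 120 minutes in both genotypes, was seen for 19 of the 37, against 24.8% of all tested genes. Pcna was the 1 gene with a stepwise rise in both, against 9.69%. With the genotype term that blocks the arrays by genotype left out of the fit, 11 genes passed (4 higher, 7 lower), and the count was 14 without the mutant array of 0 minutes, 17 without the wild-type array of 0 minutes and 17 without the mutant array of 120 minutes. The same 4 genes rose in each of these fits.

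**Figure D2:**
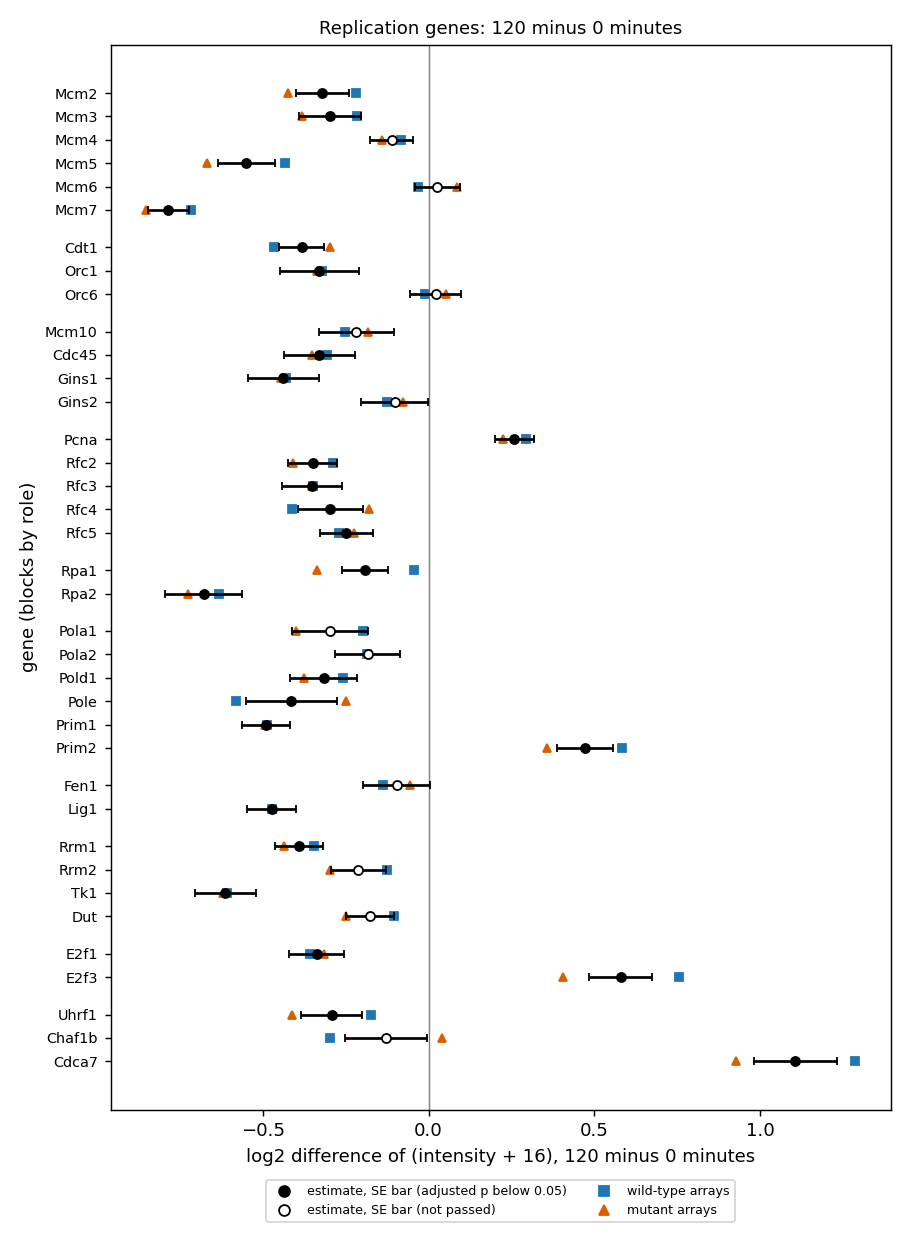
Log2 difference of (intensity + 16) between 120 and 0 minutes for the 37 tested genes, in blocks by role. Black points are the estimates over both genotypes with SE bars, filled where the adjusted p was below 0.05, and blue squares and orange triangles are the differences within wild-type and mutant arrays. Estimates run from -0.78 for Mcm7 to 1.11 for Cdca7, and 31 of 37 lie below 0.

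Of the 6 subunits of the MCM helicase, which unwinds DNA ahead of the fork, Mcm2, Mcm3, Mcm5 and Mcm7 fell and Mcm4 and Mcm6 did not pass. Mcm7 (probe set 1438320_s_at) had an intensity of 1076 at 0, 791 at 60 and 648 at 120 minutes in wild-type cells and of 1366, 955 and 750 in mutant cells. Both genotypes thus lost signal at each step, and the mutant array was the higher one at each time. Its log2 difference at 120 minutes was -0.78 ± 0.062 (SE; n = 2 arrays per time; adjusted p = 6.59e-06), and its other sets gave -0.72, -0.69 and -0.64. Mcm5 (1436808_x_at) had 313, 278 and 228 in wild-type and 304, 271 and 185 in mutant cells. The 120 minute arrays were the lowest of either genotype, the mutant one the lower of both, and the log2 difference was -0.55 ± 0.086 (adjusted p = 0.000568). With all its probe sets averaged, Mcm5 differed by -0.25 (adjusted p = 0.0946); its second set gave -0.44 and its dimmest, below the level for testing at a mean intensity of 14.1, gave 0.23. Mcm2 differed by -0.32 ± 0.079 and Mcm3 by -0.30 ± 0.092. Mcm4 went from 528 to 498 in wild-type and from 545 to 494 in mutant cells (-0.11 ± 0.064; adjusted p = 0.187), and Mcm6 from 485 to 474 and from 482 to 512 (0.03 ± 0.068; adjusted p = 0.774). Calls from 0 to 120 minutes thus differed among subunits of this single ring, though a difference between subunits was not tested. From 60 to 120 minutes all 6 estimates were below 0, from -0.39 to -0.13. All 6 subunits were then lower in both genotypes, against 39.2% of all tested genes.

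Among licensing factors, which put the helicase on origins, Cdt1 and Orc1 fell. Cdt1 had an intensity of 861, 699 and 619 in wild-type and of 726, 597 and 588 in mutant cells, a log2 difference of -0.38 ± 0.068 (adjusted p = 0.00123). Its second set above the level for testing gave -0.22. Orc1, the largest subunit of the origin recognition complex, was near the level for testing, with 47.2, 49.6 and 34.6 in wild-type and 48.9, 49.3 and 35.4 in mutant cells (-0.33 ± 0.12; adjusted p = 0.0459). It held its level at 60 minutes and was below the level for testing in both arrays of 120 minutes. Orc6, another subunit, differed by 0.02 ± 0.077 (adjusted p = 0.840). Cdc6, which works with both to load the helicase, was dim throughout: 24.5, 24.8 and 17.6 in wild-type and 33.1, 28.1 and 16.4 in mutant cells, too low for a test.

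Of the factors that activate the loaded helicase, Gins1 (log2 -0.44 ± 0.11; adjusted p = 0.00727) and Cdc45 (-0.33 ± 0.11; adjusted p = 0.0295) fell. Cdc45 had an intensity of 68.4, 73.3 and 52.2 in wild-type and 77.4, 76.1 and 57.2 in mutant cells, so the arrays of 0 and 60 minutes lay above those of 120 minutes. Gins2, which sits beside Gins1 in the GINS complex, differed by -0.10 ± 0.10 and Mcm10, which helps helicase activation, by -0.22 ± 0.11; neither passed.

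The sliding clamp and the listed subunits of its loader went apart. Pcna (1417947_at), the clamp itself, had an intensity of 1867, 2031 and 2294 in wild-type and 1904, 2217 and 2225 in mutant cells. The arrays of 0 minutes were the lowest of both genotypes and did not overlap with the later ones, and the log2 difference was 0.26 ± 0.057 (adjusted p = 0.00437). All 4 subunits of replication factor C, the clamp loader, that are among the 41 genes fell: Rfc3 by 0.35 ± 0.090, Rfc2 by 0.35 ± 0.074, Rfc4 by 0.30 ± 0.097 and Rfc5 by 0.25 ± 0.080 on the log2 scale (adjusted p from 0.00343 to 0.0297). The subunit gene Rfc1 is outside the 41 and is not described here. Rfc2 went from 311 to 287 and 252 in wild-type and from 371 to 327 and 275 in mutant cells, a fall at each step.

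Of replication protein A, which coats single-stranded DNA, the subunits Rpa2 and Rpa1 fell and Rpa3 did not pass (log2 -0.11 ± 0.097; adjusted p = 0.396). Rpa2 (1416433_at) had an intensity of 77.1, 58.1 and 44.1 in wild-type and 96.8, 58.5 and 52.3 in mutant cells (log2 -0.68 ± 0.12; adjusted p = 0.00102). Since it lay near the level for testing, the size of its difference depended on the offset: -0.83 at offset 1 and -0.43 at offset 64. Rpa1 went from 1755 to 1701 in wild-type and from 2014 to 1591 in mutant cells (-0.19 ± 0.070; adjusted p = 0.0474), so nearly all of its fall was in the mutant arrays.

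The subunits of primase, which makes the RNA primers, moved in opposite directions. Prim1 (1418369_at), the catalytic subunit, had an intensity of 465, 390 and 327 in wild-type and 494, 462 and 346 in mutant cells (log2 -0.49 ± 0.073; adjusted p = 0.000399). Prim2 (1418036_at), the large regulatory subunit, had 222, 213 and 340 in wild-type and 225, 211 and 293 in mutant cells (0.47 ± 0.084; adjusted p = 0.00127). Prim1 fell at each step, and Prim2 stayed level for the first hour and then rose in both genotypes. A second set of each gene gave -0.40 for Prim1 and 0.32 for Prim2. Among the polymerases, the catalytic subunits Pold1 (-0.32 ± 0.10; adjusted p = 0.0262) and Pole (-0.41 ± 0.14; adjusted p = 0.0316) fell, Pole from 58.9 to 34.1 in wild-type and from 57.2 to 45.6 in mutant cells. Pola1 (-0.30 ± 0.11; adjusted p = 0.0563) and Pola2 (-0.18 ± 0.097; adjusted p = 0.151) of polymerase alpha did not pass.

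Of the enzymes that finish the lagging strand, the ligase gene Lig1 (1416641_at) had an intensity of 309, 269 and 218 in wild-type and 309, 272 and 218 in mutant cells. The genotypes were almost superimposed at each time, and the log2 difference was -0.47 ± 0.073 (adjusted p = 0.000544). The flap endonuclease gene Fen1 did not pass, with 189, 213 and 171 in wild-type and 231, 207 and 222 in mutant cells (-0.10 ± 0.10; adjusted p = 0.475). Its second set, dimmer but above the level for testing, gave -0.34.

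Of 4 tested genes of nucleotide supply, Tk1 and Rrm1 fell. Tk1 (1416258_at), the thymidine kinase of the salvage pathway, had 147, 128 and 90.8 in wild-type and 148, 142 and 90.6 in mutant cells (log2 -0.61 ± 0.092; adjusted p = 0.000450), with the larger step in the second hour. Rrm1, the large subunit of ribonucleotide reductase, which makes deoxynucleotides, differed by -0.39 ± 0.072, and Rrm2, its small subunit, by -0.21 ± 0.084 (adjusted p = 0.0633), so Rrm2 did not pass. Dut, which removes dUTP, differed by -0.18 ± 0.072 (adjusted p = 0.0696). Tyms, the thymidylate synthase gene, lay between 20.8 and 32.6 in all 6 arrays, below the level for testing.

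The E2F activators, which drive this gene programme, were split. E2f1 had an intensity of 189, 169 and 144 in wild-type and 197, 191 and 155 in mutant cells, a stepwise fall (log2 -0.34 ± 0.083; adjusted p = 0.00785), and its second set above the level for testing gave -0.70. E2f3 (1434564_at) had 198, 194 and 345 in wild-type and 244, 223 and 327 in mutant cells. The 120 minute arrays lay above all others, and the difference was 0.58 ± 0.095 (adjusted p = 0.000736). A dimmer E2f3 set, 1427462_at, with a mean intensity of 53.3, gave -0.01, so the sets of this gene disagree; with both averaged the difference was 0.29 (adjusted p = 0.0355). E2f2 lay between 21.4 and 31.9, below the level for testing.

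Among chromatin and S-phase target genes, Cdca7 (1428069_at), a MYC and E2F target that helps remodel chromatin, dipped and then rose. It had an intensity of 50.4 at 0, 27.4 at 60 and 146 at 120 minutes in wild-type cells and of 49.3, 21.9 and 108 in mutant cells. Both 60 minute arrays were below the level for testing and both 120 minute arrays above all others. Its mean reached that level only through the 120 minute arrays, so that a gene of this level without the rise would not have been tested; with no filter its adjusted p at 120 minutes was 0.000121. The difference at 120 minutes was 1.11 ± 0.13 (adjusted p = 7.10e-05), or 1.32 at offset 1 and 0.74 at offset 64, and its other set, at a mean intensity of 9.43, gave 0.20. Uhrf1, which helps copy DNA methylation to new strands, fell (-0.29 ± 0.091; adjusted p = 0.0244), and Chaf1b, a subunit of the histone chaperone CAF-1, did not pass (-0.13 ± 0.12; adjusted p = 0.430).

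**Figure D3:**
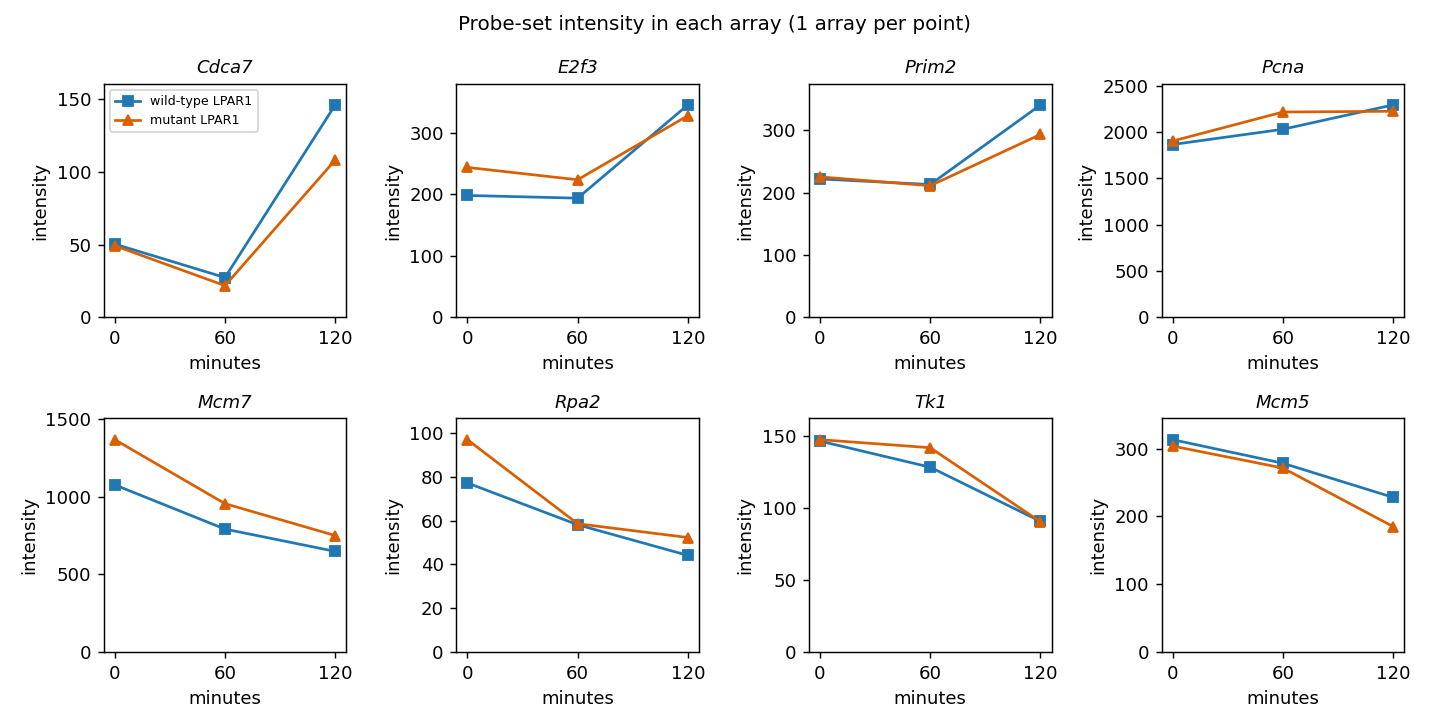
Probe-set intensity (linear scale from 0) against minutes for the 4 genes that rose, Cdca7, E2f3, Prim2 and Pcna (top), and for Mcm7, Rpa2, Tk1 and Mcm5 (bottom), with 1 array per point, wild-type in blue squares and mutant in orange triangles. Cdca7 drops to 27.4 and 21.9 at 60 minutes before reaching 146 and 108, whereas Mcm7 falls at each step, from 1076 to 648 and from 1366 to 750.

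Over the members that passed at 120 minutes, 20 other probe sets lay above the level for testing, and 19 of them had the sign of the set used, the exception being E2f3. Sets with the suffixes _s_at and _x_at, used for Mcm2, Mcm3, Mcm5, Mcm7, Gins2, Fen1 and Rrm2, can by design match more than 1 transcript.

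The separate hours show when these changes came. From 0 to 60 minutes 4 of the 37 genes fell, where 10.7% of all tested genes fell: Cdca7 (log2 -0.70 ± 0.13; adjusted p = 0.00386), Mcm7 (-0.47 ± 0.062; adjusted p = 0.000534), Rpa2 (-0.46 ± 0.12; adjusted p = 0.0219) and Cdt1 (-0.29 ± 0.068; adjusted p = 0.0168). In limma 0 of 37 genes rose, where 7.34% of all tested genes did (18.0% passed in either direction), and 2 were higher at an unadjusted p under 0.05. The median difference was -0.093 for the replication genes and -0.071 for all tested genes. In both genotypes 25 of the 37 were lower at 60 than at 0 minutes, against 51.5% of all tested genes, and 5 were higher, against 21.5%. The 4 falls became 2 without either 0 minute array or without the mutant array of 60 minutes, 6 falls and 1 rise without either 120 minute array, 5 falls and 1 rise after quantile normalization, and 0 with the block by genotype left out (5 lower and 0 higher at an unadjusted p under 0.05). The Cdca7 difference was -0.996 at offset 1 and -0.36 at offset 64, and that of Rpa2 -0.56 and -0.30. The Rpa2 call was lost without either 0 minute array or without the mutant array of 60 minutes, and the Cdca7 call without the mutant array of 0 minutes. Cdt1 lost its call under 5 of 14 alternatives, among them without the wild-type array of 0 or the mutant array of 60 minutes, and differed by -0.14 (adjusted p = 0.243) with its sets averaged.

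From 60 to 120 minutes 9 of the 37 fell and 3 rose, where 14.9% of all tested genes fell, 10.2% rose and 25.1% passed in either direction. The median was -0.21 for the replication genes and -0.019 for all tested genes, and 29 of the 37 were lower at 120 than at 60 minutes in both genotypes, against 39.2% of all tested genes, with 4 higher in both, against 29.7%. Tk1 fell by 0.50 ± 0.092 on the log2 scale (adjusted p = 0.00295), Mcm5 by 0.39 ± 0.086, Cdc45 by 0.36 ± 0.11, Prim1 by 0.32 ± 0.073, Mcm7 by 0.31 ± 0.062 and Lig1 by 0.29 ± 0.073. Rrm1, Rrm2 and Rfc5 were the other 3 that fell. Cdca7 rose by 1.81 ± 0.13 (adjusted p = 7.33e-06; 2.31 at offset 1 and 1.101 at offset 64), E2f3 by 0.65 ± 0.095 (adjusted p = 0.000722) and Prim2 by 0.54 ± 0.084 (adjusted p = 0.00109). The estimates do not use the 0 minute arrays, whose Actb ratio stood apart, though the residual spread does, and the comparison shares the 60 and 120 minute arrays with the comparisons above. The count of 12 became 5 without the mutant array of 60 or of 120 minutes (3 higher, 2 lower) and 4 with the block left out. Of the genes named with values, Cdc45 lost its call under 9 of 13 alternatives, among them each array left out in turn (adjusted p from 0.0587 to 0.180). With probe sets averaged, calls were lost by Cdc45 (-0.15; adjusted p = 0.294), Mcm5 (-0.14; adjusted p = 0.428) and E2f3 (0.28; adjusted p = 0.0651). Without the mutant array of 60 or of 120 minutes Mcm5, Prim1 and Lig1 did not pass either, and Lig1 also not without the wild-type array of 60 or of 120 minutes.

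Other genes of the pathway were followed from lists made by name, and their counts stand beside the shares of all tested genes: 30.8% fell and 16.2% rose from 0 to 120 minutes, 10.7% and 7.34% in the first hour, and 14.9% and 10.2% in the second. Of 28 tested further replication factors, 16 fell and 2 rose from 0 to 120 minutes, with a median of -0.25. Orc5, a subunit of the origin recognition complex, differed by -0.83 ± 0.090, the GINS subunit gene Gins3 by -0.81 ± 0.11, Timeless, which protects stalled forks, by -0.80 ± 0.12 and Dbf4, the activator of the Cdc7 kinase that fires origins, by -0.64 ± 0.058. Orc5 and Gins3 made most of that fall in the first hour (-0.64 and -0.81), when 5 of the 28 fell and 0 rose in limma (1 higher at an unadjusted p under 0.05), Cdc7 (-0.41 ± 0.11) and Timeless (-0.40 ± 0.12) among them. Dbf4 did so in the second (-0.54 ± 0.058), when 5 fell and 0 rose (1 higher at an unadjusted p under 0.05), with Gmnn, the inhibitor of Cdt1 (-0.46 ± 0.077), Mcm9 (-0.45 ± 0.11) and Timeless (-0.39 ± 0.12).

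Of 24 tested further G1/S genes, 13 fell and 4 rose from 0 to 120 minutes (median -0.21). The E2F partner gene Tfdp2 differed by -0.75 ± 0.079, the chromatin ATPase gene Atad2 by -0.62 ± 0.074 and the repair gene Brca1 by -0.62 ± 0.11. E2f8, an E2F repressor, differed by 0.68 ± 0.25 (adjusted p = 0.0493), but this rested on the wild-type array of 120 minutes: it had an intensity of 256 there and of 86.5 to 111 in the other 5 arrays, and without that array the mutant cells alone gave 0.0024. Cdc25a, a phosphatase that activates Cdk2, dipped and rose in both genotypes, with 144, 122 and 219 in wild-type and 165, 128 and 256 in mutant cells, and from 60 to 120 minutes differed by 0.84 ± 0.086 (adjusted p = 8.50e-05). In that hour 11 fell and 2 rose, with Tfdp2 (-0.63 ± 0.079), the pocket protein gene Rbl2 (-0.45 ± 0.073) and Atad2 (-0.44 ± 0.074) the largest falls. In the first hour 1 of the 24 passed, the deubiquitinase gene Usp1 (-0.21 ± 0.054).

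Genes of the next cell cycle phases gave larger values: of 26 tested G2/M and mitotic genes 25 fell and 0 rose in limma from 0 to 120 minutes (0 higher at an unadjusted p under 0.05), with a median of -0.69 beside -0.30 for the replication genes. The difference between these lists was not tested. From 60 to 120 minutes 24 of the 26 fell, with a median of -0.54.

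**Figure D4:**
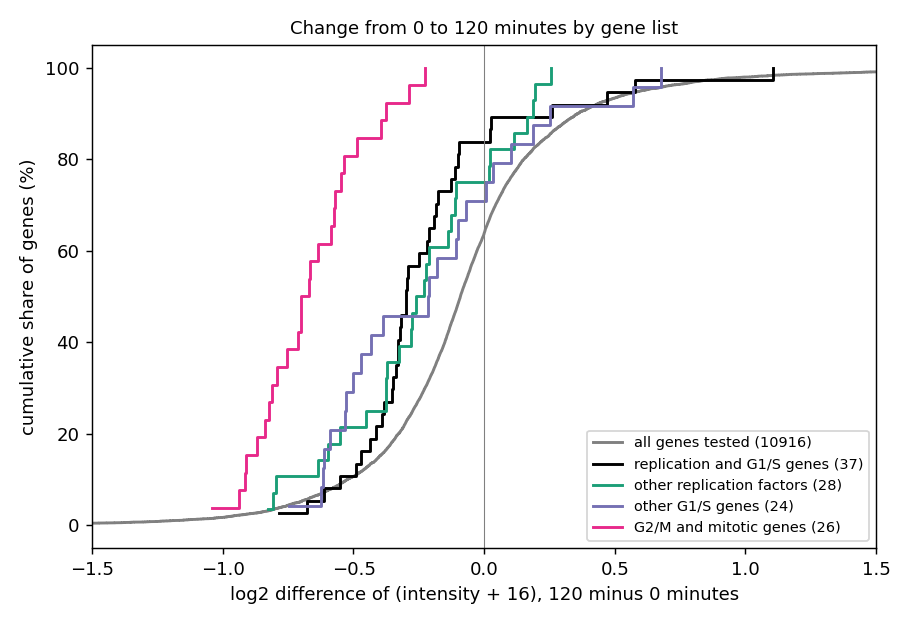
Cumulative share of genes (percent) against the log2 difference between 120 and 0 minutes, for all 10916 tested genes (grey), the 37 replication and G1/S genes (black), 28 further replication factors (green), 24 further G1/S genes (violet) and 26 G2/M genes (pink). The median of the replication genes, -0.30, lies between that of all genes (-0.091) and that of the G2/M genes (-0.69).

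Comparison of mutant with wild-type cells asks whether the genotype goes with a different level of this machinery. Differences were small: 2 of 37 genes were higher in mutant cells, Uhrf1 and Mcm7, and 1 was lower, Cdt1, where 10.4% of all tested genes were higher and 8.95% lower, or 19.4% in all, so these 3 calls do not set the group apart from the array as a whole. The median log2 difference was 0.078 for the replication genes and 0.015 for all tested genes, and 30 of the 37 estimates were above 0, against 54.2% of all tested genes. At all 3 times the mutant array was the higher one for 16 genes, against 28.4% of all tested genes, and the lower one for 6, against 22.9%.

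Mcm7, whose array values are given above, differed by 0.27 ± 0.050 (SE; n = 3 arrays per genotype; adjusted p = 0.00567), with 0.34 at 0, 0.27 at 60 and 0.21 at 120 minutes. The other Mcm7 sets gave 0.23, 0.20 and 0.09. Uhrf1 had an intensity of 167, 163 and 146 in wild-type and 233, 194 and 171 in mutant cells, so the groups did not overlap, and it differed by 0.30 ± 0.074 (adjusted p = 0.0223). Its other set, at a mean intensity of 19.0, gave -0.14, and with both averaged the difference was 0.077 (adjusted p = 0.472). Without the wild-type or the mutant array of 0 minutes Uhrf1 differed by 0.22 and did not pass (adjusted p = 0.167 and 0.177), leaving Mcm7 as the 1 gene that passed. Cdt1 differed by -0.18 ± 0.055 (adjusted p = 0.0494) and by -0.24 at its second set; the call was lost under 9 of 14 alternatives, among them either 0 minute (0.251 and 0.246) or either 60 minute array (0.184 and 0.182) left out. Without time as a block in the fit, 0 of the 37 genes passed in limma, and 0 were higher or lower at an unadjusted p under 0.05.

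Groups did not overlap for 1 other gene, Chaf1b, with 60.9, 53.4 and 46.6 in wild-type and 65.8, 63.0 and 68.2 in mutant cells, though it did not pass (0.24 ± 0.10; adjusted p = 0.133). That made 2 of 37 genes with mutant arrays all above wild-type arrays, against 9.08% of all tested genes, and 0 below, against 7.64%. All 4 clamp loader subunits among the 41 genes had positive estimates that did not pass, from 0.10 for Rfc3 to 0.18 for Rfc5, the latter at 0.17, 0.17 and 0.21 over the 3 times (adjusted p = 0.0771), and Rfc2 came nearest the threshold (0.18 ± 0.060; adjusted p = 0.0631).

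**Figure D5:**
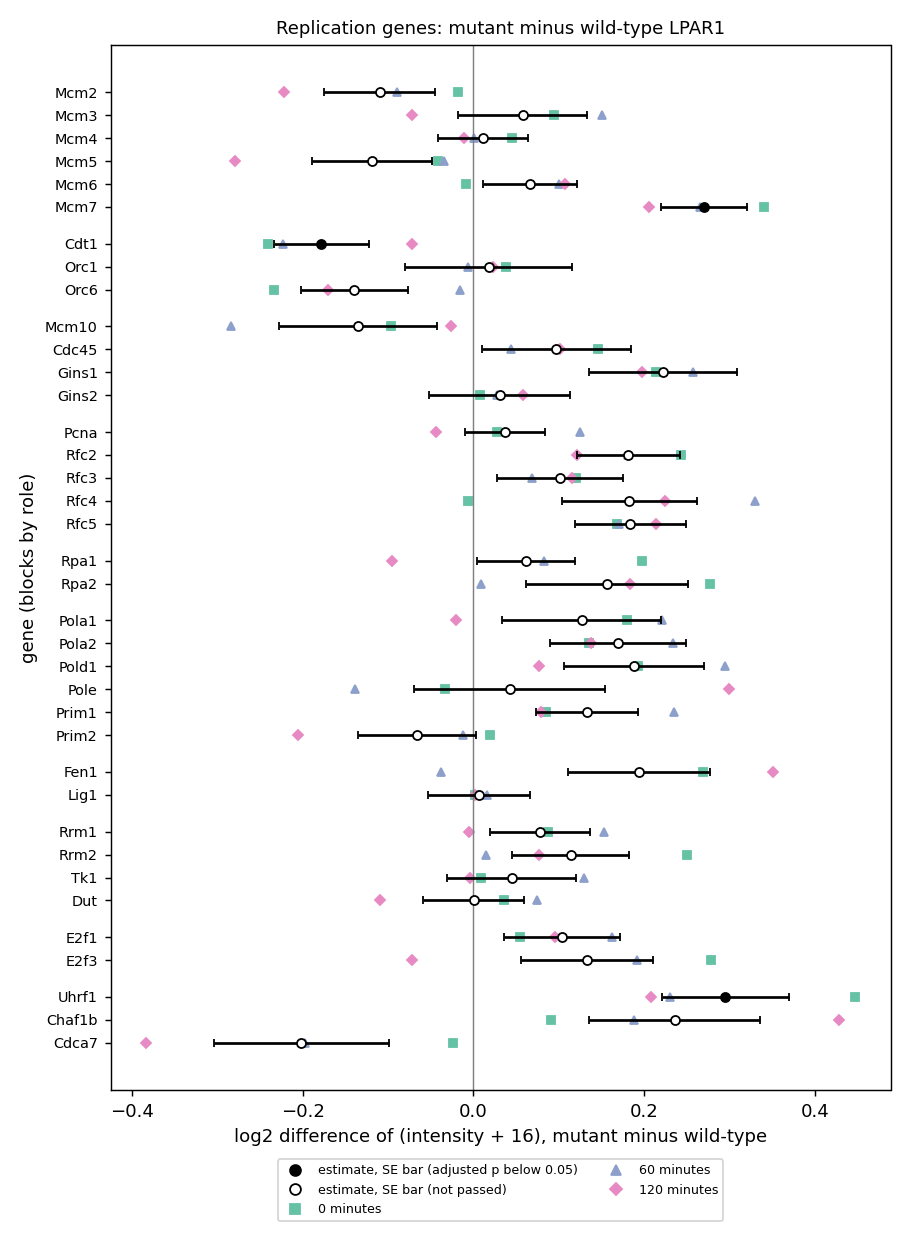
Log2 difference of (intensity + 16), mutant minus wild-type LPAR1, for the 37 tested genes in blocks by role. Black points are the estimates over the 3 times with SE bars, filled for Mcm7, Uhrf1 and Cdt1, which passed, and coloured marks are the differences at 0, 60 and 120 minutes. Estimates run from -0.20 for Cdca7 to 0.30 for Uhrf1.

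Further genes of the pathway were compared in the same way. Of the 28 replication factors 4 were higher in mutant cells and 0 lower in limma (0 lower at an unadjusted p under 0.05), beside 10.4% and 8.95% of all tested genes. Dbf4 had an intensity of 1460, 1382 and 899 in wild-type and 2185, 2029 and 1455 in mutant cells, higher at every time (log2 0.60 ± 0.047; adjusted p = 3.69e-05). Its kinase partner Cdc7 differed by 0.31 ± 0.090 (adjusted p = 0.0387), Gmnn by 0.38 ± 0.063 and the replication protein A subunit Rpa3 by 0.27 ± 0.079. Of the 24 G1/S genes 5 were higher and 1 lower: Hells, a chromatin remodeller, by 0.45 ± 0.072, the histone chaperone gene Nasp by 0.24 ± 0.051 and Tfdp2 by 0.21 ± 0.065, while Tfdp1, the other E2F partner, differed by -0.21 ± 0.047. Of the 26 G2/M genes 7 were higher and 0 lower in limma (0 lower at an unadjusted p under 0.05), with a median of 0.11.

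Whether the time response itself differed between genotypes could not be tested with 1 array per genotype and time, and is given as values. The response of mutant cells minus that of wild-type cells lay between -0.31 and 0.34 at 60 and between -0.36 and 0.34 at 120 minutes over the 37 genes, with medians of 0.0070 and -0.044 (0.023 and -0.031 over all tested genes). Genes were ranked by the smaller in size of their differences at 60 and 120 minutes, among those with 1 sign at both. Both differences share the 0 minute arrays, so a shared sign is not a separate check. The response was higher in mutant cells at both times for Rfc4 (0.34 and 0.23), Chaf1b (0.097 and 0.34), Mcm6 (0.11 and 0.12) and Orc6 (0.22 and 0.063). It was lower at both times for Uhrf1 (-0.22 and -0.24), Cdca7 (-0.17 and -0.36), Rrm2 (-0.24 and -0.17) and Rpa1 (-0.11 and -0.29). Rfc4 had 208, 177 and 152 in wild-type and 207, 227 and 181 in mutant cells, so the genotypes started level and parted at 60 minutes. No gene of the 37 went up at both later times in 1 genotype and down at both in the other. The share of all tested genes that did so was not computed.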

How the data were processed

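The deposited values are probe-set intensities on a linear scale, made by the authors with PLIER in Affymetrix Power Tools 1.14.3.1, per the submitters' processing notes; background correction and scaling between arrays are not given in the sources used here. Of 45101 probe sets, 64 controls were left out, and the 34945 others paired with 1 gene were named through the platform annotation, updated by gene ID to RefSeq symbols (GRCm38.p6). For a gene with several sets the brightest on average was used, as log2(intensity + 16), without further scaling. A filter at the 40th percentile of gene means (intensity 39.2) set which genes were tested. Genes were fitted with limma 3.58.1 in R 4.3.3 with genotype and time as additive terms, shrinkage with a trend (2 residual and 7.73 prior degrees of freedom), two-sided tests and Benjamini-Hochberg adjustment over 10916 genes. The code was tested on simulated data.

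Arrays were paired across genotypes by the time in the labels; deviations from the genotype means correlated across genes, which are not independent, at 0.912, 0.757 and 0.871 for 0, 60 and 120 minutes. Named genes are the 6 largest passed differences in each direction per comparison, 4 members per direction ranked by the smaller of both time-course differences, up to 4 per further list, and members described with their complex. Members and lists were chosen with earlier results of these data known. Alternatives were other offsets, filters, probe-set rules, shrinkage and normalization, no block, and each array left out. The number of arrays limits the precision.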

Additional observations from a re-analysis of the deposited data

How the results depend on the processing

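Alternatives were run for 26 passed differences of replication genes, 12 to 14 for each, and none of these changed sign. They were the largest within each direction of each comparison, not the largest of all passed differences. The other passed differences, among them the falls of Gins1, Pole, Rrm1 and Cdt1 from 0 to 120 minutes, and other genes named have no such values. Of 353 values, 303 kept their call and 50 lost it, and all 4 rises at 120 minutes kept it in every fit that tested them (Cdca7 was not tested in 2). With the block left out (time for the genotype comparison and genotype for the time comparisons; no condition was replicated), 0, 0, 11 and 4 replication genes and 91, 585, 2769 and 1005 genes in all passed for genotype, 60 minus 0, 120 minus 0 and 120 minus 60 minutes, against 3, 4, 26 and 12 and 2115, 1964, 5127 and 2741 with it. Without the trend 1402 genes passed for genotype. The 60th percentile filter, which tests 22 replication genes, left 2 for 60 minus 0 and 16 for 120 minus 0 minutes. Averaging probe sets left 1 for genotype and 2 for 60 minus 0 minutes.

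Median log2 differences of the replication genes moved with offset 64 (0.061, -0.061, -0.21 and -0.14 in the order above), with averaged probe sets (0.057, -0.078, -0.25 and -0.16), with no filter (0.099 for genotype), and for 60 minus 0 minutes with offset 1 (-0.11) and the 60th percentile filter (-0.082). Quantile normalization gave -0.055 for 60 minus 0 and -0.23 for 120 minus 0 minutes, where 15 genes fell and 4 rose. Leaving out 1 array gave 1 to 3, 2 to 7, 14 to 26 and 5 to 10 replication genes, 1363 to 2164, 1145 to 2511, 3674 to 5311 and 1932 to 2714 genes in all, and medians of 0.073 to 0.11, -0.12 to -0.086, -0.32 to -0.26 and -0.22 to -0.18. Omitting either array of a time gives the same genotype estimate, so these are not separate checks.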
